A study of Homo sapiens with 2 samples.

Results

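The genes described here are the R-spondin receptor genes LGR4, LGR5 and LGR6, the R-spondin genes RSPO1, RSPO2, RSPO3 and RSPO4, and TNFRSF19, 8 of the 19775 genes that the array annotation names alone on a probe set. They were chosen by name, with the expression ratios of these same arrays already known, in particular the low ratios of LGR5, LGR6 and TNFRSF19. All 14 probe sets annotated to 1 of these symbols alone were taken, and their ratios are therefore a description with no test. HCC15 cells, an established line of human lung cancer with squamous histology per the labels, were transfected with an siRNA against CTNNB1, the beta-catenin gene, or with a control siRNA. Cells of both groups grew in RPMI medium with 5% serum and were harvested after 48 h, and their RNA was hybridised to Affymetrix arrays with biotin label. Each group was 1 array of 1 culture of 1 line, the sources used here do not give the siRNA sequences, and the title of the control carries the unexplained word Tax. The series title places the study in lung cancer with mutated CTNNB1.

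In the Wnt pathway, beta-catenin enters the nucleus and activates target genes together with TCF/LEF factors. Cells limit their response by removing Wnt receptors from the surface through the membrane ubiquitin ligases ZNRF3 and RNF43. R-spondins are secreted proteins that bind LGR4, LGR5 or LGR6 together with these ligases, take the ligases out of action and so raise the cell's sensitivity to Wnt. LGR5 and TNFRSF19, a TNF receptor family member also called TROY, are established beta-catenin targets and in mice mark stem cells of the intestinal crypt. LGR6 marks stem cells of mouse skin. In mouse intestine, TROY has been described as a partner of LGR5 that restrains Wnt signalling.

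The deposited values were MAS5 signal intensities, a linear brightness per probe set. Signals below 13.8, the 25th percentile over both arrays, were raised to that floor, and a probe set entered the gene comparison when its mean signal over both arrays reached 49.1, the median of all values. A gene was represented by its brightest entering probe set, which gave 12531 genes, and the rule of size was 2-fold. With 1 array a group no test was possible, and each difference holds for these 2 arrays only. The only measure of error came from genes with several entering probe sets. The SD of log2 ratios within such a gene, pooled over genes, was 0.29 at mean signals of 209 or more (2883 genes) and 0.52 below that (1997 genes). It leaves out variation between cultures. Probes differ in brightness for the same amount of RNA, so brightness served only to choose a gene's probe set and to group genes, not to set the level of one gene against another. In such bulk RNA, fewer cells expressing a gene and less RNA per cell cannot be told apart.

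The targeted gene was lower on the brightest of its 3 probe sets. CTNNB1 (201533_at) had a signal of 338.7 with CTNNB1 siRNA and 1224 with control siRNA, 27.7% of the control. On 223679_at it had 118.4 with CTNNB1 siRNA and 129.7 with control siRNA (91.3%), and on 1554411_at 45.8 with CTNNB1 siRNA and 89.8 with control siRNA (51%). Epithelial markers were present on both arrays (5 of 5 entered, summed signal 23923 with CTNNB1 siRNA and 22336 with control siRNA). Of 8 squamous markers annotated alone, SOX2, SFN, PERP and S100A2 entered and KRT5, KRT14, KRT15 and DSG3 did not. Of the 3 blood cell markers, CD14 entered (80.3 with CTNNB1 siRNA and 67.1 with control siRNA) and PTPRC and CD3E did not. Of the neuroendocrine markers NCAM1 entered (76.7 with CTNNB1 siRNA and 67.6 with control siRNA). None of the marker genes that entered, mesenchymal and alveolar ones included, passed 2-fold.

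The sequence around annotated starts was read for some of these genes. Windows of 250 bases before to 50 bases after an annotated start were read from RefSeq (GRCh38.p14), which held 9 windows for 6 of the 8 genes, namely LGR4, LGR6, TNFRSF19, RSPO1, RSPO3 and RSPO4. The first window of LGR6 and both windows of TNFRSF19 are shown because these genes were lower, and the window of LGR4 because that receptor was not. The LGR6 window shown is the only one of that gene's windows with marked letters, so the display is no comparison of lower genes with LGR4. Capitals mark the letters CTTTG on either strand (CAAAG when read on the strand shown), the core of the sequence that TCF/LEF factors recognise.
LGR6, chr1:202193549-202193848, plus strand: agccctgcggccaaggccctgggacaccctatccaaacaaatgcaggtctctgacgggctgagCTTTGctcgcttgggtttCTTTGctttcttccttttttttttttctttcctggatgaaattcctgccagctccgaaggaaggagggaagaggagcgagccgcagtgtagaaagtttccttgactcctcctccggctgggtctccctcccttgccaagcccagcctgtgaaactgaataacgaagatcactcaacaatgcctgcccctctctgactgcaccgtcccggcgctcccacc
TNFRSF19, chr13:23570162-23570461, plus strand: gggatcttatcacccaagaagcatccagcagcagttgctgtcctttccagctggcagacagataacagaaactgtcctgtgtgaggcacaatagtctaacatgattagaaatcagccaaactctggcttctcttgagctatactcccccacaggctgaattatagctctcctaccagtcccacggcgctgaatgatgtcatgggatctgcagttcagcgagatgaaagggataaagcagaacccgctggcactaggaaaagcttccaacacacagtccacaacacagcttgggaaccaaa
TNFRSF19, chr13:23579110-23579409, plus strand: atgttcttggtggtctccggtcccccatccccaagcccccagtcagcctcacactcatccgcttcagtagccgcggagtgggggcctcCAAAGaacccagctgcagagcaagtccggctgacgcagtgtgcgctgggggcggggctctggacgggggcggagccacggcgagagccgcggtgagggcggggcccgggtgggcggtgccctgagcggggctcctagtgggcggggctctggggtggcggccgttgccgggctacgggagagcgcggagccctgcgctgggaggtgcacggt
LGR4, chr11:27472741-27473040, minus strand: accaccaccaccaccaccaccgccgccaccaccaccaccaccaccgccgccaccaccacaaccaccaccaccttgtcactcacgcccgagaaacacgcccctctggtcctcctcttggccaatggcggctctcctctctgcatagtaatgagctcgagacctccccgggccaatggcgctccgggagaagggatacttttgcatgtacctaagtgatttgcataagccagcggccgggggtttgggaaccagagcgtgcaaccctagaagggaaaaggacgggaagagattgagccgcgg

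The longer TCF/LEF motif, CTTTGNN with each N being A or T, was in 0 of the 9 windows on either strand. Of all 35116 windows in the table, 13.8% held it, and there, unlike for the 9, no chromosome was left out. The 5-letter core, which every copy of the longer motif contains, was in 3 of the 9, against 47.5% of all windows. The first LGR6 window held it 187 and 169 bases upstream of the start, the downstream TNFRSF19 window 162 bases upstream, and the RSPO3 window 231 bases upstream. The other LGR6 windows (chr1:202203462-202203761 and chr1:202213829-202214128) and the windows of LGR4, RSPO1 and RSPO4 held none. These matches describe letters only, and a window of this length says nothing of sites farther away. The windows shown differed in base composition. GC content was 55.3% for LGR6, 49% and 72.7% for the upstream and the downstream start of TNFRSF19, and 61.3% for LGR4.

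Among the receptors, LGR5 and LGR6 were lower after CTNNB1 siRNA and LGR4 was not. LGR5, the receptor best known as a stem cell marker and Wnt target, had a signal of 29.5 with CTNNB1 siRNA and 127 with control siRNA on 213880_at. This was 23.2% of the control, 4.31-fold lower and a log2 ratio of -2.11, against a pooled SD of 0.52 at this brightness. The CTNNB1 siRNA value lay below the entry signal of 49.1 but above the floor, so the gene entered through the control array alone. With the floor raised to the median of all values the LGR5 ratio was -1.37.

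The second LGR5 probe set went the other way. On 210393_at the signal was 51.7 with CTNNB1 siRNA and 39.1 with control siRNA, a log2 ratio of 0.40 at a mean just under the entry signal. The pair of LGR5 probe sets therefore did not share a direction, and the lower LGR5 value rests on 1 of 2 probe sets. Their median, taken with no entry signal, was -0.85, which does not reach 2-fold. Which transcript or part of the gene each probe set reads was not tested.

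LGR6 was read by 1 probe set. The signal of LGR6 (227819_at) was 154.4 with CTNNB1 siRNA and 472.8 with control siRNA, 32.7% of the control. It was 3.06-fold lower, a log2 ratio of -1.61, and both values stood well over the entry signal. LGR6 was the only member past 2-fold whose probe sets held no opposite value, and it had no second probe set that could have shown one.

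LGR4, the R-spondin receptor with the broadest expression in normal tissues, had slightly higher signal after CTNNB1 siRNA. Its bright probe set (218326_s_at) had 1338.7 with CTNNB1 siRNA and 1064 with control siRNA, 125.8% of the control (log2 ratio 0.33). That is about the pooled SD of 0.29 for bright probe sets, and close to the median of 0.25 for genes of the same brightness. The other LGR4 probe sets were under the floor on both arrays, and they allow no ratio. On 222596_s_at LGR4 had 12.8 with CTNNB1 siRNA and 11.4 with control siRNA, and on 230674_at it had 2.9 on each array.

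TNFRSF19 was lower on its brightest probe set. The signal of TNFRSF19 (227812_at) was 79.5 with CTNNB1 siRNA and 234 with control siRNA, 34% of the control, 2.94-fold lower and a log2 ratio of -1.56. Both values were over the entry signal. Both dimmer probe sets had the higher value with CTNNB1 siRNA. On 223827_at the signal was 37.4 with CTNNB1 siRNA and 29.4 with control siRNA, a log2 ratio of 0.35. On 224090_s_at it was 21.7 with CTNNB1 siRNA and 10.8 with control siRNA, the control lying under the floor. The median over the 3 probe sets was 0.35, upward, so the direction of TNFRSF19 depends on which probe set is taken. The gene has 2 annotated starts, shown above, and which transcripts the probe sets read was not tested.

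**Figure D1:**
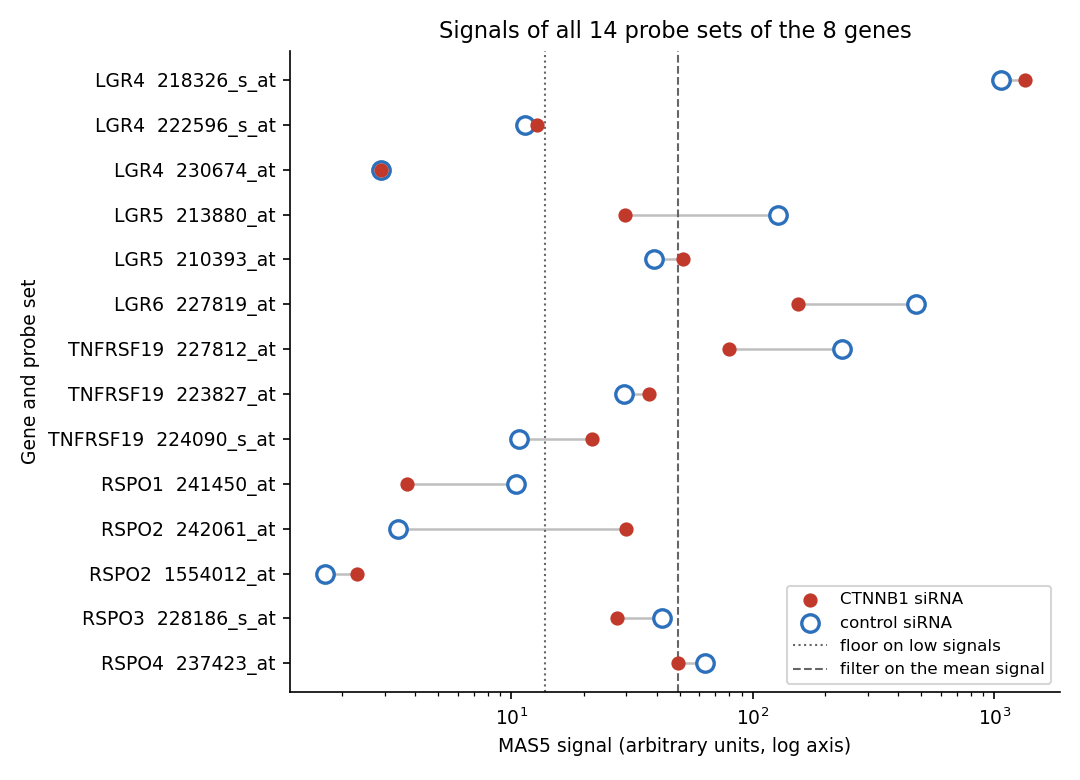
MAS5 signal on a log axis for each of the 14 probe sets, grouped by gene; filled points are the CTNNB1 siRNA array and open points the control siRNA array, 1 array each, with the floor (13.8) and the entry signal (49.1) as lines. The bright probe sets of LGR5, LGR6 and TNFRSF19 have the CTNNB1 siRNA point well to the left of the control point, while the dimmer probe sets of LGR5 and TNFRSF19 have the CTNNB1 siRNA point on the right.

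The R-spondin ligand genes were dim on both arrays. RSPO4 was the only one to enter, with 49.2 with CTNNB1 siRNA and 63.4 with control siRNA (237423_at), a log2 ratio of -0.37. That is smaller than the pooled SD of 0.52 at this brightness. RSPO3 read 27.5 with CTNNB1 siRNA and 42.3 with control siRNA (228186_s_at), a log2 ratio of -0.62 under the entry signal. RSPO1 lay under the floor on both arrays, with 3.7 with CTNNB1 siRNA and 10.5 with control siRNA (241450_at).

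RSPO2 had 1 probe set with values far apart. On 242061_at the signal was 30 with CTNNB1 siRNA and 3.4 with control siRNA, the control being under the floor, which makes it at least 2.17-fold higher. It fell short of 2-fold after centring on the median ratio (log2 0.98), and both values lay under a floor at the median. Of the 27524 probe sets under the entry signal, 6% were at least 2-fold higher by the same floor. The second RSPO2 probe set (1554012_at) read 2.3 with CTNNB1 siRNA and 1.7 with control siRNA, both under the floor. No detection calls were at hand, so whether any R-spondin transcript was present could not be settled, and the floor is no detection limit.

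Of the 8 genes, 5 entered. Of these, 3 (LGR5, LGR6 and TNFRSF19) passed 2-fold downward and 0 upward, whereas 2.38% of all 12531 genes passed it downward and 2.29% upward. Nothing is read from that contrast, because the genes were chosen with these ratios known. The median log2 ratio of the 5 was -1.56, against 0.15 over all genes. By size of decrease LGR5 stood at place 19 of the 12531 genes, LGR6 at place 51 and TNFRSF19 at place 58, while LGR4 stood at place 8743 and RSPO4 at place 1764.

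Dim genes varied more, so each gene was also set beside the genes of its own decile of mean signal. In the decile that holds LGR5 (mean signals of 66.4 to 94.2), 6.38% of 1253 genes were at least 2-fold lower, and 4 genes, LGR5 included, were at or under its ratio. In the deciles of TNFRSF19 (149 to 241) and of LGR6 (241 to 377), 0.878% of genes were at least 2-fold lower in each. There, 2 genes were at or under the ratio of TNFRSF19 and 2 at or under that of LGR6, these genes included. Nothing is read from the places of LGR5, LGR6 and TNFRSF19 in their deciles either, because they were chosen with these ratios known. In the decile of RSPO4, the dimmest, 10.2% were at least 2-fold lower, and 509 of 1254 genes had a ratio as low as that of RSPO4. In the decile of LGR4, 0.159% were at least 2-fold lower, and the middle 95% of ratios ran from -0.45 to 0.91, with LGR4 inside it.

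**Figure D2:**
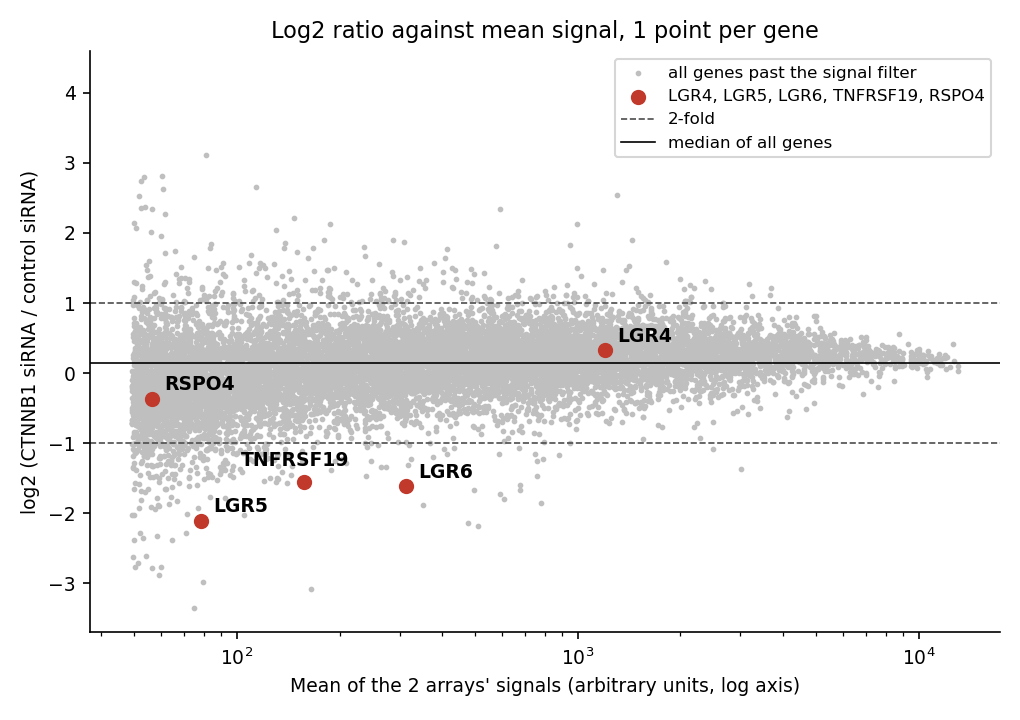
Log2 ratio of CTNNB1 siRNA over control siRNA against the mean of both signals (log axis) for 12531 genes (grey) and the 5 entering members (red), 1 probe set a gene, with dashed lines at 2-fold and a solid line at the median of all genes, 0.15. LGR5, LGR6 and TNFRSF19 lie at the lower edge of genes of like brightness, and LGR4 and RSPO4 lie within the bulk.

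The next list took genes that act with R-spondins and LGR receptors at the membrane. It held ZNRF3 and RNF43, the Wnt co-receptors LRP5 and LRP6, the Frizzled receptors, the Dishevelled adaptors DVL1 to DVL3, SDC4 (a proteoglycan that binds R-spondin 3 in Xenopus), IQGAP1 (a scaffold that binds LGR4) and NDP, whose protein norrin is a ligand of FZD4. Of 20 genes 15 entered, of which 0 passed 2-fold downward and 1, FZD2, upward, against 2.38% and 2.29% of all genes. In a list of this size these counts do not stand apart from those shares. The median log2 ratio was 0.34, against 0.15 over all genes. This list and those below were not matched to all genes for brightness. The median ratio was -0.23 in the dimmest decile and 0.25 in the decile of LGR4, so a gap between such medians may reflect brightness, which was not tested. ZNRF3, the ligase that R-spondins and LGR receptors act on, had a signal of 608.4 with CTNNB1 siRNA and 614.1 with control siRNA. Its partner RNF43 had the lowest ratio of the list, -0.49, with 59.1 with CTNNB1 siRNA and 83.2 with control siRNA.

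On their brightest probe sets the co-receptors LRP5 and LRP6 stayed under 2-fold. LRP5 had 189 with CTNNB1 siRNA and 155.7 with control siRNA, and LRP6 had 739.7 with CTNNB1 siRNA and 647.3 with control siRNA, log2 ratios of 0.28 and 0.19. The dimmer LRP6 probe sets were further apart. On 34697_at, which also entered, LRP6 had 105.9 with CTNNB1 siRNA and 51.7 with control siRNA (2.05-fold higher), and on 205606_at, under the entry signal, 53.9 with CTNNB1 siRNA and 15.4 with control siRNA (3.5-fold higher). The size of the LRP6 difference thus depends on the probe set. FZD2 had 364.6 with CTNNB1 siRNA and 173.9 with control siRNA on its brightest probe set, a log2 ratio of 1.07. A dimmer FZD2 probe set that also entered (238129_s_at) had 155.4 with CTNNB1 siRNA and 74 with control siRNA (2.1-fold higher). By its brightest probe set FZD2 fell short of 2-fold under 4 ways of scaling the arrays (0.85 to 0.92). FZD1, FZD9, FZD10 and NDP did not enter, and FZD8 was not analysed here.

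Another list held relatives and partners of TNFRSF19. Of its 12 genes, which included the TRAF adaptors of TNF receptors, the ectodysplasin receptors EDAR and EDA2R and the Nogo receptor components RTN4R, LINGO1 and NGFR, 7 entered and 0 passed 2-fold in either direction. With 2.38% of all genes past 2-fold downward and 2.29% upward, a count of 0 of 7 does not stand apart. The median log2 ratio was 0.27, against 0.15 over all genes. The highest ratios were 0.95 for TRAF1 (69.6 with CTNNB1 siRNA and 36.1 with control siRNA) and 0.94 for the TNF receptor family member RELT (145.2 with CTNNB1 siRNA and 75.5 with control siRNA). The second TRAF1 probe set (205599_at), under the entry signal, had the opposite direction, with 4.6 with CTNNB1 siRNA, under the floor, and 22.7 with control siRNA. The lowest ratio was -0.44 for EDAR. RTN4R, LINGO1, NGFR and EDA2R did not enter, and TRAF2 was not analysed here.

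The other receptors built with leucine-rich repeats like LGR4 to LGR6 were dim throughout. None of the 9 probe sets of the hormone receptor genes TSHR, FSHR and LHCGR and the relaxin family receptor genes RXFP1 and RXFP2 entered. Their highest signal on the CTNNB1 siRNA array was 27.9 (RXFP1), and on the control siRNA array it was 36.7 (RXFP2, a different probe set).

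Genes associated with LGR5-positive stem cells in the intestine went in both directions. Of 20 genes 12 entered, of which 4 passed 2-fold downward and 1 upward, against 2.38% and 2.29% of all genes. The median log2 ratio was -0.03, against 0.15 over all genes. The 4 lower genes were the Wnt feedback genes NKD1 (-3.07), AXIN2 (-1.73) and NOTUM (-1.28) and the transcription factor gene SP5 (at most -2.77, since its CTNNB1 siRNA value lay under the floor). These 4 were already known to be low on these arrays and are no independent evidence. NKD1 had 35.1 with CTNNB1 siRNA and 295.6 with control siRNA, and SP5 had 6.6 with CTNNB1 siRNA and 94.1 with control siRNA. Both therefore entered through the control array alone, where they were high. AXIN2 had a probe set under the entry signal (224498_x_at) with the opposite direction, 35.7 with CTNNB1 siRNA and 20 with control siRNA. Its other probe sets under the entry signal were lower with CTNNB1 siRNA. On 224176_s_at AXIN2 had 17.7 with CTNNB1 siRNA and 64.1 with control siRNA. On 222695_s_at it had 12.4 with CTNNB1 siRNA, under the floor, and 33.3 with control siRNA. SP5 fell short of 2-fold with the floor at the median (-0.94). The higher one was the adhesion receptor gene CD44 (1.43), whose median over all its probe sets was 0.12. In that median, probe sets under the floor on both arrays counted as 0. The other entering CD44 probe sets had log2 ratios of 1.29 (212063_at) and 0.12 (204490_s_at).

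Of the genes under 2-fold by their brightest probe set, 3 are given as examples. SOX9, a transcription factor of crypt progenitors, had 216 with CTNNB1 siRNA and 232.5 with control siRNA. The BMP co-receptor gene RGMB had 685.3 with CTNNB1 siRNA and 653.6 with control siRNA on its brightest probe set. A dimmer RGMB probe set that also entered (227339_at) was 4.71-fold higher, with 107.5 with CTNNB1 siRNA and 22.8 with control siRNA, so RGMB too depends on the probe set. The matricellular gene SMOC2 had 100.8 with CTNNB1 siRNA and 79.6 with control siRNA. ASCL2, OLFM4, MSI1, EPHB3, PROM1 and LRIG1 did not enter, and EPHB2 and BMI1 were not analysed here.

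**Figure D3:**
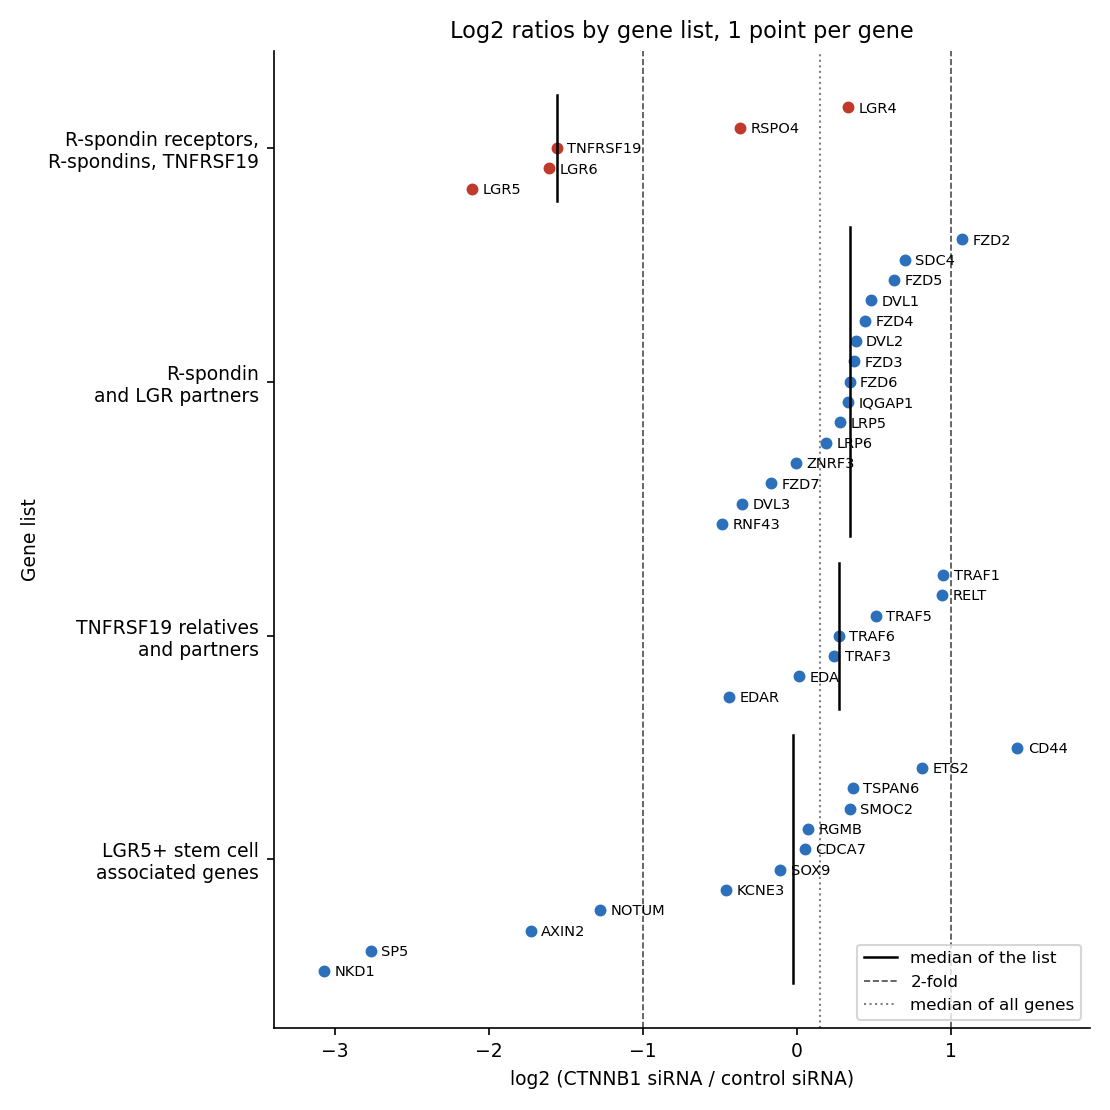
Log2 ratio of CTNNB1 siRNA over control siRNA for the 5 entering members (red) and the entering genes of 3 related lists (blue), 1 probe set a gene, with the list median as a solid bar, 2-fold as dashed lines and the median of all genes (0.15) as a dotted line. LGR5, LGR6 and TNFRSF19 lie beyond 2-fold on the lower side with NKD1, SP5, AXIN2 and NOTUM, and FZD2 and CD44 lie beyond it on the higher side.

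The 2-fold rule gave the same answer for LGR6 under every processing tried, with log2 ratios from -1.83 to -1.48 over 13 alternatives. Many of these could not move LGR6. It has 1 bright probe set, so floors, filters and choices of probe set left it at -1.61, and only the scalings and the pseudocount changed it. LGR5 and TNFRSF19 each had 1 entering probe set. Taking no filter, the median over entering probe sets or the largest ratio therefore only repeated their values. LGR5 and TNFRSF19 stayed at least 2-fold lower in every alternative in which they entered except the median over all probe sets. Apart from that one, LGR5 ran from -2.32 to -1.37 and TNFRSF19 from -1.77 to -1.39. LGR4 ran from 0 to 0.47, and RSPO4 from -0.58 to -0.21, neither past 2-fold under any of them. The 0 of LGR4 came from the median over all probe sets, in which its probe sets under the floor on both arrays counted as 0. Its bright probe set ran from 0.07 to 0.47. The order of LGR5, LGR6 and TNFRSF19 was not fixed, since LGR5 had the smallest decrease of them with the floor at the median.

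**Figure D4:**
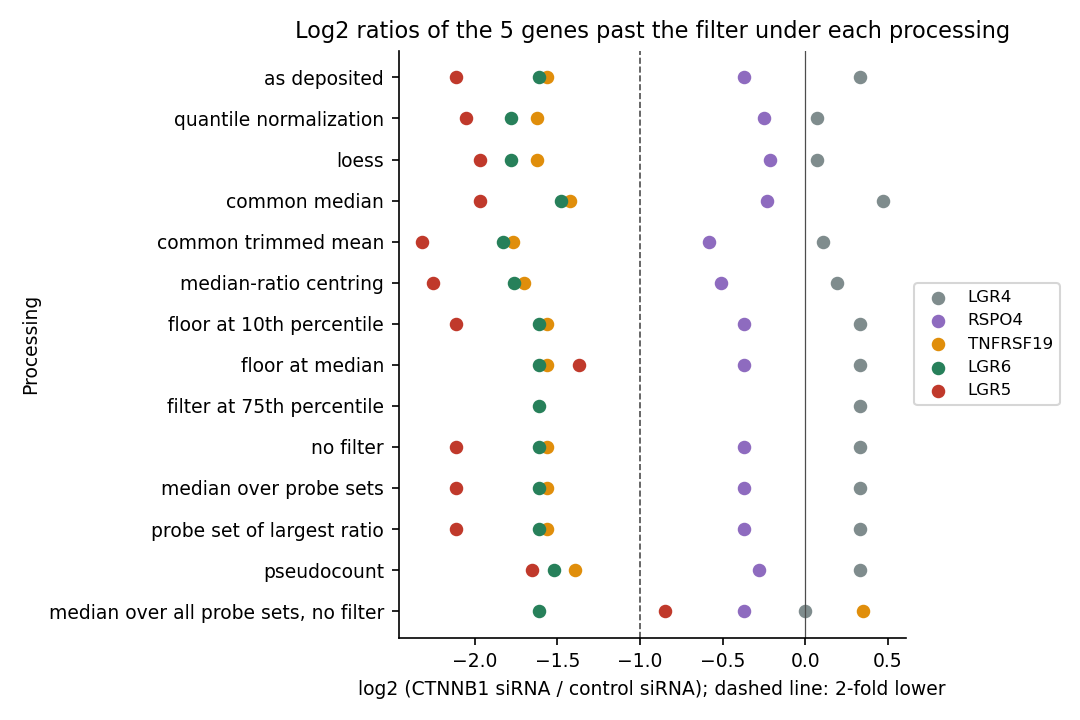
Log2 ratio of CTNNB1 siRNA over control siRNA for the 5 entering members (colours) under the deposited scaling and each of 13 alternatives (rows), with 2-fold lower as a dashed line; a missing point means that the gene did not enter. LGR5, LGR6 and TNFRSF19 lie left of the line in each row in which they have a point, except LGR5 and TNFRSF19 in the last row, the median over all probe sets.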

How the data were processed

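Gene expression was measured on 2 arrays, 1 per group. The deposited values were linear signal intensities for 54675 probe sets, made by the authors with MAS5, per the submitters' processing notes. Its version and target intensity, scaling between arrays and detection calls were not given in the sources used here, and a scaling difference would shift every ratio. Genes were named from GEO's platform annotation, with 41097 probe sets under 1 symbol, 1801 under several and 11777 not listed, and 41043 of the 41097 were matched to NCBI RefSeq for their current symbol. Probe sets ending in _s_at can read related transcripts. No build is named for the arrays, and the coordinates given belong to the RefSeq start windows (GRCh38.p14).

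Each log2 ratio set CTNNB1 siRNA over control siRNA, after the floor and the entry signal and with the arrays' scaling kept, in Python 3.11.15 with pandas 2.3.3, numpy 2.4.6 and statsmodels 0.14.6 (loess span 0.4). The functions were tested on simulated arrays. The members and lists were chosen with earlier results of these data known. All 8 members and CTNNB1 were named with every probe set, list genes when past 2-fold, and ZNRF3, RNF43, LRP5 and LRP6 always. The rule also took each member's nearest genes by signal, which are not given because that distance sets levels of different probe sets against each other. EDAR, RELT, TRAF1, SOX9, RGMB and SMOC2 lie outside this rule and were named after their values were seen. The same holds for the further probe sets of LRP6, FZD2, AXIN2, TRAF1 and RGMB. The number of arrays limits the precision, and intervals could not be given. Alternatives were 5 scalings, 2 floors, 2 filters, 2 choices of probe set, a pseudocount of 16 and, added after seeing the data, the median over all probe sets with no filter.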

Additional observations from a re-analysis of the deposited data

How the results depend on the processing

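No paired analysis was possible because each group was 1 array. Of 13 alternatives, 12 were planned and 1, the median over all probe sets with no filter, was chosen after seeing the data. With that median, LGR5 had a log2 ratio of -0.85 and TNFRSF19 turned to 0.35, and 1 of the 8 genes stayed at least 2-fold lower, against 3 as deposited. With the filter at the 75th percentile 1 was lower as well, since LGR5, TNFRSF19 and RSPO4 did not enter. The count of all genes at least 2-fold lower, 298 as deposited, was 183 with a common median, 544 with a common trimmed mean, 439 with median-ratio centring, 160 with the floor at the median, 34 with the filter at the 75th percentile, 1271 with no filter, 899 with the median over all probe sets, 477 with the probe set of largest ratio and 155 with the pseudocount. The count at least 2-fold higher, 287 as deposited, was 472, 126 and 170 with those 3 scalings, and 139, 721, 495 and 679 with the 75th percentile filter, no filter, the median over all probe sets and the probe set of largest ratio. Lower genes were 50.9% of the calls as deposited, 27.9% with a common median, 81.2% with a common trimmed mean, 72.1% with centring, 39.5% with the floor at the median, 19.7% with the 75th percentile filter, 63.8% with no filter and 64.5% with the median over all probe sets. The median of all genes moved from 0.15 to 0.29 with a common median and to -0.07 with a common trimmed mean. The list of LGR5-positive stem cell genes changed sign, with medians of 0.19 (common median), 0.06 (75th percentile filter), 0.02 (median over entering probe sets) and 0.12 (probe set of largest ratio). Apart from these settings' own construction, the cause was not tested. Nothing here measures variation between cultures, and signals under the floor have no order.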

Other observations

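Dim probe sets that go against the bright one were not rare on these arrays. The 298 genes at least 2-fold lower had 179 probe sets that lay under the entry signal but above the floor on 1 array or both, in 119 genes, and 67 of these (37.4%) were higher with CTNNB1 siRNA. Of all 11848 such probe sets named for 1 gene, 41.3% were higher. Of 56 further entering probe sets of the 298 genes, 37 (66.1%) were lower with CTNNB1 siRNA. The share over all entering probe sets was not taken, so nothing is read from that figure. These shares describe 2 arrays, and what the dim probe sets read was not tested.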
